A study of Bos indicus with 12 samples.

Results

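Of 57738 autosomal windows of 100 bp with 4 or more measured cytosines, 1609 (2.79%) differed by 40 percentage points or more between the highest and the lowest of 12 Nelore cattle. These wide-range windows are described here. A window's methylation in an animal was the sum of methylated calls over the sum of all calls at its cytosines, and the rule used the 12 percentages and not the groups. The whole series held 193249 windows with a measured cytosine. The range therefore chose the windows, and every value that restates it is given as a description with no test.

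Muscle was *longissimus thoracis* of Nelore (*Bos indicus*) steers, taken at slaughter, with 1 reduced representation bisulfite sequencing (RRBS) library per animal. The Tough group (n = 6) had the higher shear force and the Tender group (n = 6) the lower, and they had been chosen from the extremes of the breeding value for shear force. No animal was treated, and animals of the same group had different sires. Muscle is a mixture of fibres, fat and other cells, so a percentage is an average over cells. Measured calls summed to 18399401 to 23470740 per library as deposited.

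DNA methylation in mammals sits mostly on cytosines followed by guanine (CpG) and is copied to both strands at cell division, so neighbouring CpGs of a molecule are often in the same state. Where the state follows a nearby sequence variant, a region can be methylated on none, some or all of its alleles. Values of animals then tend to fall in steps. Imprinting, where the state follows the parent of origin, does not by itself give such steps between animals. RRBS cuts DNA with MspI at CCGG and reads the ends of the fragments, so most measured cytosines lie in CpG-rich stretches. Reads were 50 bases and single-end, so cytosines on opposite strands, or 50 bp or more apart, were read on different reads.

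The range of the wide-range windows had a median of 45.9 points and reached 94.7 points. It was 40 to 45 points in 708 of them, 50 or more in 509, 60 or more in 145 and 70 or more in 48. The 2 windows nearest above the threshold, chr1:4272201-4272300 and chr21:5662701-5662800, had a range of 40 points each. The 2 nearest below it, chr21:65436901-65437000 and chr25:27006201-27006300, had ranges of 39.98 and 39.98 points. The threshold cuts through a continuous distribution with no gap at 40 points.

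**Figure D1:**
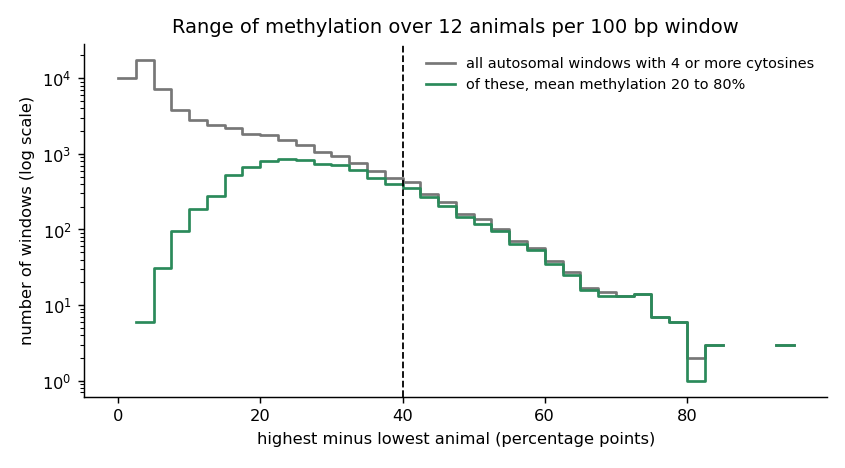
Number of 100 bp windows (log scale) by the highest minus lowest methylation over 12 animals, in bins of percentage points, for all autosomal windows with 4 or more cytosines and for those with mean methylation of 20 to 80%. The dashed line is the threshold of 40 points, and the counts fall smoothly across it.

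Wide-range windows were mostly windows of intermediate methylation. A mean of 20 to 80% over the animals was found in 1439 of 1609 (89.4%), and 16.6% of the 8648 autosomal windows with such a mean and 4 or more cytosines were wide-range windows. None of the windows with a mean under 5% or of 95% or more belonged to them. The 7209 windows with a mean of 20 to 80% and a range under 40 points serve as comparison windows below. The share of wide-range windows differed between chromosomes, from 1.03% on chromosome 28 (7 of 681) to 4.76% on chromosome 27 (36 of 757).

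The range moved with the number of reads. Counting in each animal the reads over the best covered cytosine of each strand, a wide-range window rested on a median of 26 reads per animal and a comparison window on 43. Among windows with a mean of 20 to 80%, the share with a wide range was 36% in the 2124 windows with the fewest reads, then 17.5% and 8.66%, and 4.94% in the 2164 windows with the most. The SD over the animals had a median of 13.7 points, against a median standard error of 9.14 points from counting these reads as binomial draws. Their ratio had a median of 1.57, against 1.05 in the comparison windows, and was over 2 in 302 wide-range windows (18.8%) and in 0.943% of the comparison windows. It was over 3 in 64. The SD goes with the range that chose the windows, and comparison windows are held under 40 points, so these ratios are descriptions. At 26 reads and 50% methylation the Wilson interval runs from 32.1 to 67.9% (95%). PCR copies were not marked, so intervals and limits here cover counting error only, and how much of each range the number of reads accounts for was not tested.

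A single animal often set the range. Without 1 of the animals, 1227 of the 1609 windows fell under 40 points, and 382 stayed at 40 points or more whichever animal was left out. The second highest minus the second lowest animal was 40 points or more in 221. The lowest value belonged to Tough 2 in 251 windows and to Tough 6 in 233. The highest belonged to Tender 2 in 263 windows and to Tough 6 in 193, and to Tough 1 in 55. The comparison windows had a similar order. Tough 2 was lowest in 14.3% of them and Tough 6 in 11.2%, against 15.6 and 14.5% of the wide-range windows. Tender 2 was highest in 13.5%, against 16.3%, and Tough 1 in 4.66%, against 3.42%. Tough 6 had the fewest reads of the 12 libraries and Tough 1 the most.

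Mean methylation over the 1609 windows ran from 45.1 to 48.9% in Tough (mean 47.3% ± 1.36, SD, n = 6) and from 47.7 to 51.8% in Tender (mean 49.3% ± 1.47, SD, n = 6). The groups overlap, and no test is given for a mean over chosen windows. After each window's mean was taken off, the correlation of 2 animals over the wide-range windows lay between -0.18 and 0.049 in the 66 pairs (median -0.099). No pair of animals shared a large part of its deviations. Removing a window's mean by itself pulls such correlations below 0.

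Cytosines of a wide-range window mostly varied widely one by one. Of its 8279 cytosines, 7256 (87.6%) had an own range of 40 points or more, against 52.9% of the cytosines in comparison windows. All cytosines did so in 889 windows (55.3%). In 4 windows 1 cytosine or none did so. The rule pools these cytosines, and comparison windows are held under 40 points. These shares thus follow largely from the rule and are descriptions. A cytosine at 5% or less in 1 animal and 95% or more in another was found in 139 windows (8.64%), which is 191 cytosines. A difference in the DNA sequence can also change such a call, and its part was not tested.

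Cytosines in a wide-range window rose and fell together over the 12 animals. On the same strand and under 25 bp apart, the correlation of a pair of cytosines had a median of 0.73 in 11239 pairs, against 0.39 in the comparison windows, and these pairs share reads. On the same strand and 50 bp or more apart, where they do not, it was 0.45, against 0.079. Between the strands of 1 CpG it was 0.47, against 0.091. The rule favours windows whose cytosines agree, since disagreement shrinks the pooled range, so these values are descriptions.

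The opposite strands of a window can be read apart in 246 wide-range windows, with 2 or more cytosines on each. The remaining windows had fewer on 1 of the strands, and 1252 had cytosines on 1 strand only. In 175 of the 246 both strands had a range of 40 points or more, and in 70 only 1 of them did. The correlation of plus and minus strand methylation over the animals had a median of 0.54 (leave-one-animal-out standard error 0.049, n = 245 windows), against 0.11 in the 3143 comparison windows. It was 0.8 or more in 40 windows (16.3%), against 0.764% of comparison windows, and negative in 12. The same animal was lowest on both strands in 77 windows and highest on both in 80. The rule pools both strands and so favours windows whose strands agree, while comparison windows are held under 40 points. These values are therefore descriptions as well.

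Cytosines outside a window, which the rule did not use for that window, followed it less closely. Some of them lay in other wide-range windows. At 50 to 200 bp from its edge the correlation had a median of 0.23 (standard error 0.036, n = 494), against 0.15 in comparison windows (n = 2184). At 200 to 500 bp it was 0.15 (standard error 0.032, n = 519), against 0.13. At 500 to 2000 bp it was 0.07 in both sets, and at 2000 to 5000 bp it was 0.051 and 0.054. Values of 0.8 or more at 50 to 200 bp were found in 22 wide-range windows (4.45%) and in 0.87% of the comparison windows. At 50 to 200 bp the typical wide-range window thus lay somewhat above the comparison windows, and from 200 bp on it differed little from them. A small number kept a strong correlation.

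**Figure D2:**
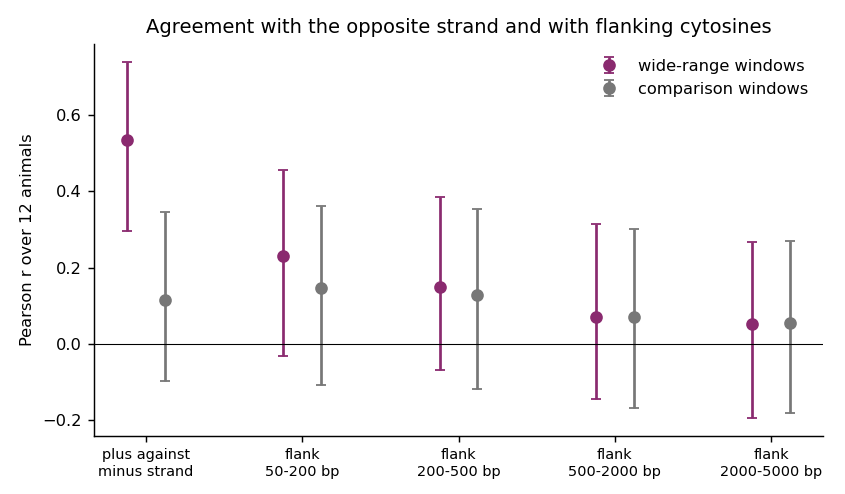
Pearson correlation over the 12 animals between the plus and minus strand cytosines of a window and between a window and flanking cytosines at 4 distances. Points are medians over windows and bars run from the lower to the upper quartile, for wide-range windows and for comparison windows, whose medians meet beyond 500 bp.

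Most wide-range windows stood alone, but up to 500 bp away other wide-range windows were more frequent than near comparison windows. Among windows with a mean of 20 to 80%, the window 100 bp away was a wide-range window in 31.4% of cases next to one (82 of 261) and in 13.4% next to a comparison window (179 of 1333). At 300 to 500 bp the shares were 27.2 and 18.9%, at 600 to 1000 bp 17.3 and 17.3%, at 1100 to 2000 bp 18.5 and 15.9%, and at 2100 to 5000 bp 16.7 and 14.3%. With starts at most 1000 bp apart, 1412 wide-range windows stood alone and 197 formed 89 chains. The share of wide-range windows also moved with the number of reads, whose part in these shares was not tested.

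The longest chain held 5 windows, chr16:49990601-49990700, chr16:49990701-49990800, chr16:49990901-49991000, chr16:49991001-49991100 and chr16:49991101-49991200. At chr16:49990601-49990700 the Tough animals had 20.7, 37.8 and 51.7% (lowest, median and highest) and the Tender animals 48.8, 58.1 and 81%. The groups overlap there between 48.8 and 51.7%. At chr16:49991101-49991200 the values were 12.6, 34.9 and 53.1% in Tough and 20.4, 33.1 and 52.4% in Tender, so the groups overlap over most of their range. The pooled difference, Tender minus Tough, was positive in all 5 windows and was 24.8, 24.5, 12.3, 11.3 and 1.55 points in their order. Window chr16:49991001-49991100 held 20 cytosines, all with an own range of 40 points or more, and its strands correlated at 0.50. The adjusted p of the logistic model for Tender minus Tough was 0.0645 in the first window of the chain and 0.998 in the last.

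Over all wide-range windows, the 4 with the highest correlation with cytosines at 200 to 500 bp, among 181 with a range of 30 points or more there, were chr11:106196801-106196900 (0.998), chr11:106196401-106196500 (0.991), chr11:106196001-106196100 (0.976) and chr27:6224501-6224600 (0.90). At the last one Tough animals had 21.3, 27.2 and 45.7% and Tender animals 8.84, 22.7 and 63.6% (lowest, median and highest). Its calls per animal ran from 147 to 779, and coverage and methylation of the animals correlated at 0.68, whose part was not tested.

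The 3 windows on chromosome 11 belong to a block of 1200 bp, chr11:106196001-106197200, in which Tender 6 was set apart. Their flanking cytosines lay partly in one another. The block's 6 windows with a measured cytosine were taken because Tender 6 lay 20 points or more above every other animal in each. They held 91 cytosines, and Tender 6 was the highest animal at 89, which largely follows from that choice. Over the block the pooled methylation of Tender 6 was 52.7%, against 2.71 to 8.88% in the other 11 animals. At single cytosines of the block Tender 6 had a median of 52.3% and values from 21.7 to 81.8%.

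In the block's window chr11:106196801-106196900, Tough animals had 0, 0.59 and 3.94% (lowest, median and highest), the other Tender animals lay between 0 and 2.17% and Tender 6 was at 59.3% (Wilson 95% interval 49.6 to 69.2%, 92 reads). Both strands gave it, with a range of 61.6 points on the plus strand and 53.4 points on the minus strand. The same order held at chr11:106196401-106196500, where Tender 6 was at 57.5% and the next highest animal, Tough 2, at 5.34%. Calls in Tender 6 in these windows (868 and 666) were within the range of the other animals (507 to 957 and 484 to 923). Its coverage at chr11:106196801-106196900 relative to its library's total was 43.1 CPM (calls scaled to a common library total) against a median of 33.1 in the others, and the part of coverage in the result was not tested.

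Windows bordering the block did not meet its definition, which by itself sets the edges of the block. In the nearest measured window before it, chr11:106195801-106195900, Tender 6 had 84.1% and the others 50.8 to 81.1%, and in the nearest after it, chr11:106197801-106197900, 82.7% against 64 to 82.6%. All 12 animals were thus above 50% in both bordering windows.

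**Figure D3:**
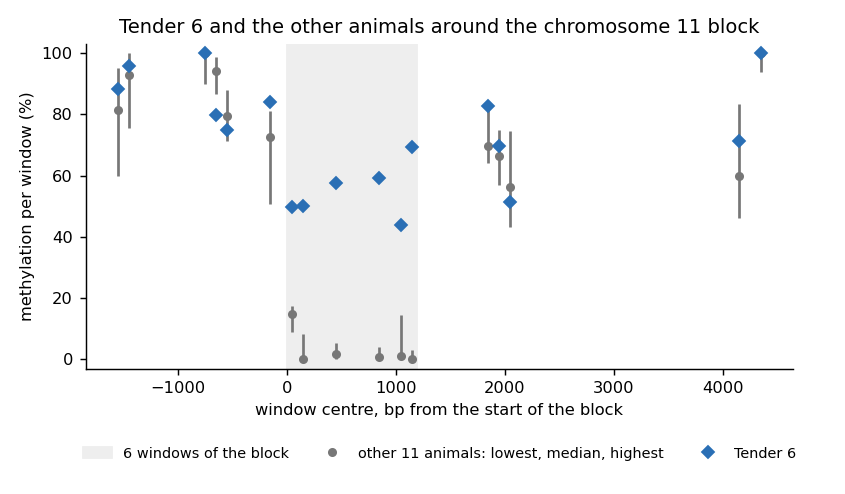
Methylation per 100 bp window (%) in Tender 6 (diamonds) and in the other 11 animals (line from lowest to highest, point at the median) against the distance of the window centre from the start of the block, in bp. The shaded block was defined by Tender 6 lying 20 points or more above every other animal. Inside it Tender 6 lies between 43.7 and 69.2% and the others at 17.6% or less. Outside the block Tender 6 falls in or near the range of the others.

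A similar form, 1 to 3 animals at 30% or more and all others at 10% or less, was found in 8 wide-range windows, 2 of them the ones just described. The class was defined after the values had been seen. The reverse form, with 9 or more animals at 90% or more and all others at 70% or less, was found in 0 windows. Values of the few animals lay between 33.9 and 64.6%.

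At chr1:117016101-117016200 Tough 2 had 59.6% and Tender 5 36.9%, and the other 10 animals 1.57% or less. At chr2:27870701-27870800 Tough 2 had 41.6% and Tough 4 35.7%, and the others 2.22% or less. At chr22:16732101-16732200 Tough 4 had 40.6% and Tender 3 40.1%, with the others at 5.74% or less, and the strands correlated at 0.97 over the animals.

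In 2 of the windows 3 animals were apart. At chr3:34291701-34291800 Tough 3 had 59%, Tough 4 64.6% and Tender 4 37.9%, and the others 6.85% or less. At chr6:67172401-67172500 Tough 3 had 40.7%, Tender 1 37% and Tender 2 33.9%, and the others 6.73% or less. At chr26:50894101-50894200 only Tough 5 stood apart, with 51.1% against 4.17% or less. The set of animals thus changed from window to window, and both groups had animals in it.

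Coverage was higher in the animals set apart. In all 8 windows each of them had a higher coverage, as calls relative to the library's total (CPM), than the median of the other animals, from 33.1 against 31.5 CPM at chr11:106196401-106196500 to 10.8 and 17.9 against 6.79 CPM at chr1:117016101-117016200. At chr3:34291701-34291800 the 3 animals had 195 to 217 calls and the others 53 to 124. At chr2:27870701-27870800 the 2 animals had 171 to 233 calls and the others 71 to 152. The correlation of coverage and methylation over the animals was 0.88 and 0.84 in these, 0.55 both at chr1:117016101-117016200 and at chr6:67172401-67172500, and 0.15 to 0.49 in the other 4, and its part in the result was not tested. Over all wide-range windows it was 0.7 or more in size in 29 (1.8%), against 1.61% of comparison windows.

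Values did not usually fall in steps. At a median of 26 reads an animal, counting error can blur true steps, and how many were missed was not tested. A gap of 20 points or more with at least 2 animals on each side (2 levels) was found in 37 windows (2.3%), and 2 gaps of 15 points or more with a middle level within 10 points of the midpoint of the outer ones (3 levels) in 50 (3.11%). With gaps 5 points smaller these counts were 171 and 481, and with gaps 5 points larger 13 and 6, so they depend on the gap chosen. Without Tender 3 the windows with 2 levels numbered 58. With the first gaps these are together 79 windows (4.91%), since 8 met both definitions. In 48 of the 50 windows with 3 levels, at least 1 level held a single animal. Among the comparison windows 4 had 2 levels and 0 had 3, which a range under 40 points makes rare by itself.

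Of the 19308 values of the wide-range windows, 39.2% lay within 10 points of 0, 50 or 100, zones that cover 40% of the scale. In the comparison windows it was 27.7%, but their mean of 20 to 80% and range under 40 points limit values near 0 and 100. Values of 40 to 60% made up 30.7%, while 24.6% lay between 20 and 40% and 22.9% between 60 and 80%. An animal under 20%, one at 40 to 60% and one over 80% occurred together in 28 windows, and in 0 of these were the zones of 20 to 40% and 60 to 80% empty. The widest gap between neighbouring values took a median of 29.4% of the range, against 27.4% in comparison windows, and set a single animal apart in 63.8% and 47.9%. Animals were spread between the extremes in most windows.

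The window with the largest range, chr1:152335901-152336000, held 4 plus strand cytosines. Tough animals had 5.26, 56.5 and 78.2% (lowest, median and highest) and Tender animals 42.7, 64.2 and 100%. Tough 5 was lowest and Tender 2 highest, and the other 10 animals ran from 20.6 to 84.8% with a mean of 59.9%. It met the definition of 3 levels with 1 animal at each end, and also that of 2 levels, by a gap of 22.1 points above Tough 5 and Tough 6. Its calls per animal were 45 to 123.

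The clearest steps among the windows with the largest ranges were at chr5:45200801-45200900. Tough 2 and Tough 5 had 0% and Tender 1 3.91%, Tough 4 had 27.8%, and the other 8 animals ran from 58.6 to 93.3%. Its 5 cytosines lie within 15 bases on the minus strand and all varied by 92.9 points or more. Few reads lay behind it: a count of 0 allowed up to 16.7% in Tough 2 (18 reads) and up to 30% in Tough 5 (10 reads), and the Wilson 95% interval of Tough 4 ran from 11.7 to 54.6%. Cytosines at 50 to 200 bp followed it with a correlation of 0.68.

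At chr18:1178801-1178900 Tough animals had 1.85, 39.2 and 93.7% and Tender animals 0, 0.99 and 35.7% (lowest, median and highest). Tough 6 was highest, and Tender 4, Tender 5 and Tender 6 were at 0%, which allowed up to 15, 27.3 and 21.4%. Its pooled difference, Tender minus Tough, was -32.3 points with an adjusted p of 0.455 in the logistic model. The Tough values in order were 1.85, 20.6, 28.9, 49.5, 59.5 and 93.7%, so the animals of 1 group spread over most of the scale. Cytosines at 50 to 200 bp followed the window with a correlation of 0.88.

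At chr18:64542701-64542800 only Tough 6 (32.9%) and Tender 6 (28.2%) were low, and the other 10 animals lay between 66 and 99%. This is 1 of the 4 windows with the largest gap that leaves 2 or more animals on each side, and in the other 3, at chr1:117016101-117016200, chr2:27870701-27870800 and chr22:16732101-16732200, the pair of animals was high. Cytosines at 200 to 500 bp, 9 of them, followed with a correlation of 0.89 and a range of 50.8 points.

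The other windows with a range of 80 points or more were spread over 5 chromosomes. At chr22:1936201-1936300 (range 83.7 points) Tough 6 had 5.36% and Tough 4 89.1%. At chr13:78042701-78042800 (83.7 points) Tough 6 had 3.85% and Tough 2 87.5%, with the others between 37.8 and 76.3%. At chr20:9109401-9109500 (82.8 points) the extremes were Tender 5 with 13.2% and Tender 1 with 96%. At chr19:54718001-54718100 (80.9 points) Tough 2 stood apart with 19.1% below 11 animals at 59.7 to 100%. At chr24:1937601-1937700 (80.7 points) Tender 4 had 17.4% and Tough 5 98.1%. These 5 windows held 4 cytosines each, all on 1 strand, and Tough 6, with the fewest reads, was the lowest in 2 of them.

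**Figure D4:**
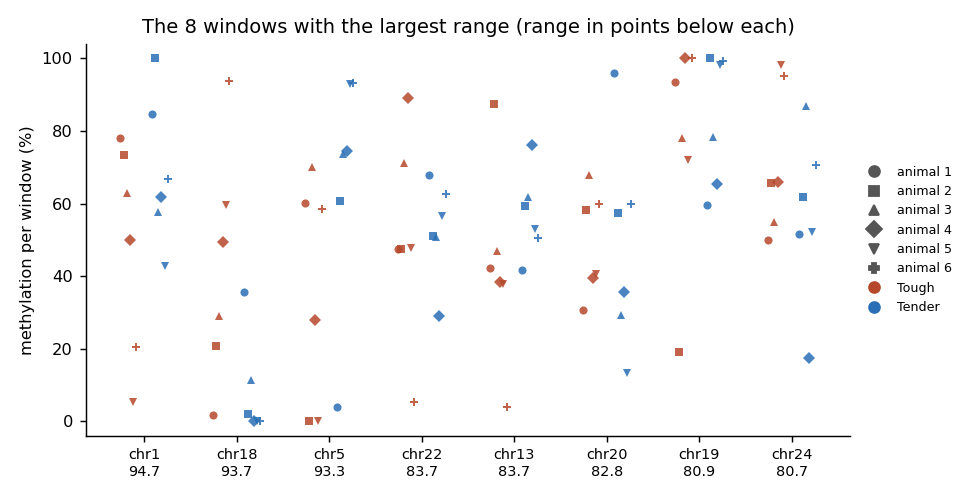
Methylation (%) of each animal in the 8 windows with the largest range, by chromosome, with the range in points under each. Each point is 1 animal, its colour the group and its shape the replicate number, and most windows show animals across the whole scale and no separation of Tough from Tender.

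Of the 4 windows with the most cytosines, 2 lie outside the block on chromosome 11. Window chr11:49406601-49406700 held 22 cytosines and had 16.4, 29.2 and 41.9% in Tough and 0.904, 12.3 and 29.7% in Tender. Its strands correlated at 0.36. Window chr14:65344401-65344500 held 21 cytosines and had 9.29, 28.7 and 50.2% in Tough and 22.5, 33.7 and 51.4% in Tender, with the strands correlated at 0.75. Both groups overlap in both windows.

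The range rule did not use the groups, so Tender and Tough can be compared in these windows. The comparison asks whether the animals' wide spread follows shear force. A logistic regression on group with an overdispersion factor was fitted to every window, as in the study's methods. P-values were adjusted over all 193249 windows. With an adjusted p under 0.05 and a pooled difference above 25 points, 2 of 1609 wide-range windows (0.124%) were called, against a background of 0.0217% of all windows (42) and 0.00346% of the 57738 autosomal windows with 4 or more cytosines (2, the same windows). A large group difference goes with a wide range, so this share is not independent of the rule, and nothing is read from it. By the adjusted p alone 5 passed (0.311%), against 0.288% of all windows and 0.277% of those with 4 or more cytosines. An unadjusted p under 0.05 was found in 136 (8.45%), against 8.76 and 8.29%. The groups did not overlap in 2 windows (0.124%), against 0.177 and 0.178%. By p-value and by overlap the wide-range windows were near these backgrounds. In the comparison windows, the closest in mean methylation, the shares were higher. There 0.486% had an adjusted p under 0.05, 9.32% an unadjusted p under 0.05, and 0.333% had groups without overlap.

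Pooled differences, Tender minus Tough, had a median of 2.02 points in the wide-range windows (60.8% positive), 1.07 points in the comparison windows (59.6% positive) and 0.189 points in all windows (54.3% positive).

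The 2 called windows lie near sites that the study's tables assign to GNAS and EBF3. The study itself reported differentially methylated regions at both genes, with the same model, thresholds and animals. These calls thus repeat its test and are no independent evidence for either gene. GNAS encodes the stimulatory G protein alpha subunit and is a known imprinted locus, and EBF3 is a transcription factor of the early B cell factor family. At chr13:57484901-57485000 (closest gene GNAS) Tough animals had 13, 21.5 and 29.1% (mean 21.1% ± 7.12, SD, n = 6) and Tender animals 26.3, 45.8 and 67.1% (mean 45.8% ± 13.4, SD, n = 6). Tough and Tender overlap between 26.3 and 29.1%. The pooled difference was 25.6 points (adjusted p = 0.0168 in the logistic model). It lost the call without Tough 2, Tough 3, Tough 4 or Tender 5, where the difference was 20.9 to 24.5 points, and the adjusted p was above 0.05 without Tough 2 (0.0702). Within the libraries of higher and lower bisulfite conversion the difference was 36.5 and 22.3 points. The window's 4 minus strand cytosines had 51 to 110 calls per animal, and calls on the same read count as separate. Flanking cytosines correlated with the window at -0.33 (50 to 200 bp) and -0.53 (200 to 500 bp), the latter with a range of only 3.23 points.

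At chr26:49275301-49275400 (closest gene EBF3) Tough animals had 1.52, 15.6 and 30% (mean 17% ± 10.7, SD, n = 6) and Tender animals 25.9, 42.3 and 59.7% (mean 42% ± 11.6, SD, n = 6). The groups overlap between 25.9 and 30%. The pooled difference was 25.4 points (adjusted p = 0.0407 in the logistic model), 35.3 and 20.9 points within the conversion groups. The call was lost without Tough 1, Tough 2, Tough 3, Tough 6, Tender 1, Tender 2, Tender 5 or Tender 6. A second window with EBF3 as closest gene, chr26:49278501-49278600, had 52.4, 78.1 and 98.6% in Tough and 58, 80.8 and 87.7% in Tender (pooled difference -2.96 points, adjusted p = 0.977 in the logistic model). All 9 cytosines of the first window had an own range of 40 points or more. Limma on log2 ratios called none of the wide-range windows, and neither did the logistic model with an F-test. An unadjusted p under 0.05 was found by limma in 95 (5.9%), against 5.04% of all windows, and by the F-test in 86 (5.34%), against 5.62%. The chi-square test behind the calls takes the overdispersion factor of a window as known, although it is estimated from 12 animals, so its p-values are smaller than those of the F-test, and the 2 calls rest on that choice.

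The other 3 windows with an adjusted p under 0.05 had smaller pooled differences. At chr1:144217201-144217300 Tough animals had 65.5, 69.6 and 75.3% and Tender animals 33.3, 40.5 and 68.8%, with Tender 6 in the range of Tough (pooled difference -23.7 points, adjusted p = 0.00936 in the logistic model). At chr9:102446001-102446100 they had 11.5, 15.3 and 34.2% and 32.2, 39.5 and 52.9% (21.8 points, adjusted p = 0.0253 in the logistic model). At chr25:14361001-14361100 they had 4.23, 14.8 and 15.9% and 16.8, 32.9 and 47.3% (16.8 points, adjusted p = 0.0175 in the logistic model). The adjusted p rose above 0.05 at chr9:102446001-102446100 without Tough 3, Tough 4, Tough 5, Tough 6, Tender 3 or Tender 6 (0.0509 to 0.0819), and at chr25:14361001-14361100 without Tender 2 or Tender 5 (0.0555 and 0.0536).

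In 2 windows the groups did not overlap. At chr25:14361001-14361100 all 6 Tender animals exceeded all 6 Tough animals. At chr25:3828101-3828200 (closest gene C25H16orf71) the reverse held, with 61.7, 68.7 and 87.3% in Tough and 31.2, 52 and 56.8% in Tender. These 2 windows were picked for their lack of overlap, which fixes an exact permutation p, so none is given. In the logistic model over all windows the second had an adjusted p of 0.0675.

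**Figure D5:**
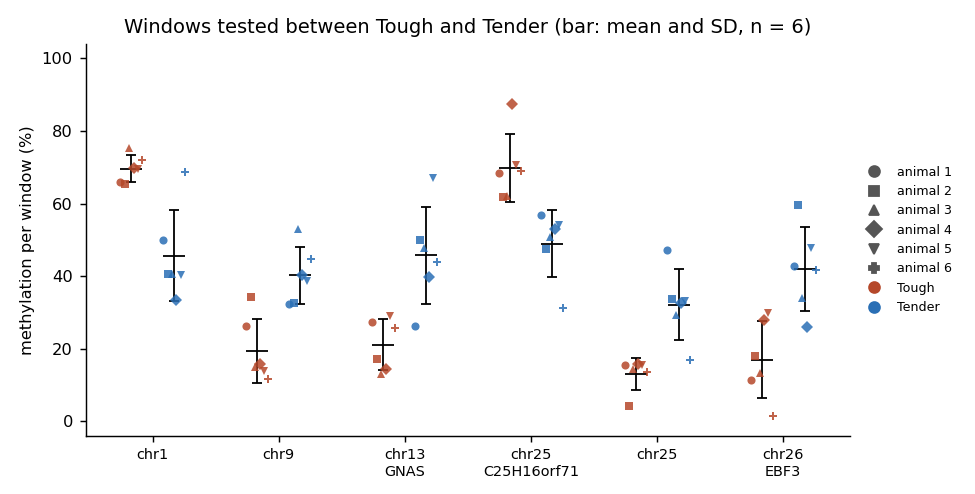
Methylation (%) of each animal in the 5 windows with an adjusted p under 0.05 and in the further window without overlap, for Tough and Tender, with the mean and SD (n = 6) as a bar. Tender is higher at 4 of the 6 windows and the difference of the means is 19 to 25 points in size.

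Gene names could be given for few windows. Within 5000 bp of a site in the study's tables of differentially methylated sites lay 22 wide-range windows, with 16 gene or locus names, 12 of them symbols. These sites were chosen for their difference between the same animals, so they are no independent evidence for a difference of the windows near them. Of the lists of imprinted, muscle, tenderness, immune and DNA methylation genes, the names held 2 imprinted genes and 0 of the others.

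The imprinted genes are GNAS, with 2 windows, and MEST, a known paternally expressed gene. At chr4:94250901-94251000 (closest gene MEST) Tough animals had 42.3, 62.1 and 90% and Tender animals 27.3, 50.9 and 89.7%, with 7 minus strand cytosines all of an own range of 40 points or more. Tough 1 had 90% (70 calls), Tender 1 89.7% (223 calls) and Tender 2 85.7% (98 calls). Tender 3 was lowest with 27.3%. Calls of neighbouring cytosines share reads, so fewer reads than calls lay behind these values. The second GNAS window, chr13:57486401-57486500, had 43.1, 68.2 and 90.5% in Tough and 44.4, 56.8 and 78.5% in Tender. The groups overlap over most of their range in both.

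Among the other named genes, TPH2 encodes the brain form of tryptophan hydroxylase, SLC5A2 a renal glucose transporter, FBLN2 an extracellular matrix protein and NTN5 a member of the netrin family. Window chr5:1537901-1538000 (closest gene TPH2) had 36.7, 42.3 and 54.7% in Tough and 11, 23 and 42.1% in Tender (adjusted p = 0.0638 in the logistic model). Window chr25:27522201-27522300 (closest gene SLC5A2) had 22, 45.3 and 65.9% in Tough and 63.3, 66.9 and 76.8% in Tender (adjusted p = 0.0752 in the logistic model). At chr22:58367801-58367900 (closest gene FBLN2) Tough 5 had 60.5% and the other Tough animals 17.9 to 28.7%, while Tender animals had 25.3, 36.9 and 41.5%. The second FBLN2 window, chr22:58367501-58367600, had 43.3, 61.9 and 69.6% in Tough and 32.7, 55.6 and 77.8% in Tender. At chr18:55299201-55299300 (closest gene NTN5) they were 27.8, 44.7 and 58.9% in Tough and 48.1, 66.8 and 75% in Tender, with an overlap.

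The gene SPEG encodes a kinase of striated muscle. Window chr2:107414801-107414900, near SPEG and SPEGNB, had 11.8, 35.1 and 41.8% in Tough and 36.8, 56.9 and 65.4% in Tender (adjusted p = 0.0691 in the logistic model). The 3 windows near AJM1 had values from 8.36 to 70.8% over both groups, and 2 near CTDP1, a phosphatase of RNA polymerase, from 0 to 76.2%. The window near RALGPS1 had 16.7, 30.8 and 44.2% in Tough and 38.9, 50.2 and 69.6% in Tender. None of the windows in this paragraph had an adjusted p under 0.05.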

How the data were processed

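RRBS was made from *longissimus thoracis* of 12 Nelore animals, 6 Tough and 6 Tender, 1 library each. Trimming by the authors used Trim Galore 0.4.1, and Bismark 0.23.0 placed the reads on the ARS-UCD1.2 build. In methylKit 1.8.1 they chose to keep cytosines with 10 or more reads, drop the best covered, normalize coverage and keep those measured in all animals. The deposited values are scores, since the authors scaled the reads of each animal by 1 factor (1 to 1.27) and rounded them. The planned design assumed reads, and the logistic model of the study's methods was kept on the scores. Whole reads were recovered for all 7625628 values as an alternative.

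Windows of 100 bp, pooled percentages, correlations, steps and the logistic model (chi-square test, overdispersion, Benjamini-Hochberg over all windows) were computed in Python 3.11.15 with scipy 1.17.1. Limma 3.58.1 on log2 ratios (pseudocount 1), an F-test, other thresholds and leaving out each animal were alternatives. The logistic model, limma, step and correlation steps were tested on simulated data. The simulated windows for the step definitions held independent calls, while real calls share reads. How often steps are missed at the median of 26 reads was not tested. P-values of limma measure the spread between animals. The logistic model counts calls as binomial draws and widens their error by the spread between animals, never narrowing it. Where nothing is widened, its p-values reflect the counting of calls, and calls on the same read count as separate. Libraries were put into higher and lower bisulfite conversion by the study's spike-in efficiencies (3 Tough and 2 Tender higher). Replicate numbers follow accession order. Named windows were the 8 widest, the 4 with most cytosines, the 4 with the largest gap, 4 with 3 levels, those nearest the threshold, the longest chain, the 4 with the strongest flank correlation, the 3 smallest p-values and every call, plus, added after the data were seen, windows with an adjusted p under 0.05, without overlap, near the study's sites, or with few animals apart. The members and lists were chosen with earlier results of these data known. Genes are the closest genes in the study's supplementary tables within 5000 bp, names only, a choice made after the data were seen. Gene lists could be matched to those names only, as no annotation of ARS-UCD1.2 was used here. Genome sequence was not used here.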

Additional observations from a re-analysis of the deposited data

Results flagged for a closer look

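In 118 groups of 6 animals (each group in each named window, and 3 summaries), 1 animal lay farther from the other 5 than Dixon's test allows at 95% in 25. Chance sets an animal apart in about 1 of 20 groups, and the named windows were chosen for wide or uneven values, so the number set apart is not independent of that choice.

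In the block on chromosome 11 Tender 6 lay above the other Tender animals at chr11:106196001-106196100 (49.9%), chr11:106196401-106196500 (57.5%), chr11:106196801-106196900 (59.3%) and chr11:106197001-106197100 (43.7%), and Tough 2 above the other Tough animals at chr11:106196801-106196900 (3.94%) and chr11:106197001-106197100 (14.5%). Tough 2 was the next highest of the 12 animals in the last 2 of these windows.

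Among windows with few animals apart, Tough 2 (59.6%) and Tender 5 (36.9%) were high at chr1:117016101-117016200, Tender 4 (37.9%) at chr3:34291701-34291800, Tough 3 (40.7%) at chr6:67172401-67172500, Tough 4 (40.6%) and Tender 3 (40.1%) at chr22:16732101-16732200, and Tough 5 (51.1%) at chr26:50894101-50894200.

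Single animals lay low in other windows. These were Tender 2 at chr1:4272201-4272300 (60%), Tough 6 at chr2:107414801-107414900 (11.8%), Tender 1 at chr5:45200801-45200900 (3.91%), Tender 6 at chr18:64542701-64542800 (28.2%), Tough 2 at chr19:54718001-54718100 (19.1%), Tender 6 at chr25:3828101-3828200 (31.2%) and Tough 2 at chr25:14361001-14361100 (4.23%). Single animals lay high at chr16:49991001-49991100 (Tender 6, 57.3%), chr18:1178801-1178900 (Tender 1, 35.7%), chr22:58367801-58367900 (Tough 5, 60.5%) and chr25:3828101-3828200 (Tough 4, 87.3%). Over all wide-range windows, Tender 2 was the highest animal in 263 (16.3%), above the other Tender animals. It was also the highest in 13.5% of the comparison windows.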

How the results depend on the processing

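The number of wide-range windows was 4395 with a threshold of 30 points, 509 with 50, 371 with 6 or more cytosines, 9917 with 2 or more, 221 by the second highest and second lowest animals, and 220 from cytosines with 20 or more reads in every animal. It stayed within 1.5 times of 1609 under the other settings, and was 1340 to 1536 without 1 animal. Unscaled reads gave 1574 windows, 97.4% of which were among the 1609.

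The wide-range windows called between the groups numbered 0 with the F-test and with limma, 8 without overdispersion correction, 5 with a difference above 10 points and 0 to 6 without 1 animal (0 without Tender 5, 6 without Tender 4, 4 without Tender 3 or Tender 6, 1 without Tough 2, Tough 3, Tender 1 or Tender 2). With conversion as a covariate it was 2. Over all windows calls were 0 with the F-test (10864 with an unadjusted p under 0.05) and with limma (9733), 266 without overdispersion correction, 303 above 10 points, 2 among windows of 4 or more cytosines, 15 with 20 or more reads and 41 to 81 without 1 animal (81 without Tough 1, 66 without Tough 3 or Tender 3, 76 without Tender 4, and 41 without Tender 5). The F-test allows for the overdispersion being estimated from 12 animals and the chi-square test does not, which makes the p-values of the F-test larger by construction. For the other settings the cause was not tested.

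The median correlation of the strands was 0.46 by Spearman and 0.46 with 1 cytosine a strand, and 0.52 to 0.59 without 1 animal (0.59 without Tough 2). With 1 flanking cytosine that at 50 to 200 bp was 0.19. Windows with 2 levels numbered 171 with gaps of 15 points and 13 with gaps of 25, and 37 to 58 without 1 animal (58 without Tender 3). Windows with 3 levels numbered 481 with gaps of 10 points and 6 with gaps of 20. Unweighted means put 38.7% of values near 0, 50 or 100. Windows with 1 to 3 animals at 30% or more and the others at 10% or less, a class and alternatives chosen after seeing the data, numbered 9 with 25% and 7 with 35% in place of 30%. The 6 windows shown by group kept their direction in every leave-out, which is no sign of stability, since they were chosen for a difference between these animals. No paired analysis was possible because the replicate numbers follow accession order and pair no animals. At the median of 26 reads an animal, a value of 50% has a Wilson 95% interval of 32.1 to 67.9%.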
